A study of Mus musculus with 3 samples.

Results

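The BCL-2 family decides whether a cell keeps its mitochondria intact, and 10 of its genes were followed through 3 RNA-seq libraries of follicular regulatory T (TFR) cells. These were the pro-survival genes Bcl2, Bcl2l1 (encoding BCL-XL) and Mcl1, the effectors Bax and Bak1, and the BH3-only genes Bcl2l11 (BIM), Bbc3 (PUMA), Pmaip1 (NOXA), Bid and Bad. They were taken by gene name, each had 1 row in every library, and they are 10 of 25759 genes listed. Of those genes 22044 had a stated exon length and 7017 passed a level filter of more than 5 RPKM in at least 1 library. All 10 family genes passed that filter.

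In healthy cells the pro-survival proteins hold BAX and BAK in check on the outer mitochondrial membrane. BH3-only proteins are induced or activated by stress, cytokine loss or antigen receptor signals. They bind the pro-survival proteins through a short helix, the BH3 motif, and free or activate the effectors, which then open the membrane and start the caspase cascade. In regulatory T cells MCL-1 and BIM are the best known opponents, with MCL-1 needed for survival and BIM limiting the number of cells.

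The cells were CD4+B220-GFP+CXCR5+GITRhi TFR cells, sorted from spleen and mesenteric lymph nodes on day 10 after NP-KLH (a hapten on a carrier protein, 125 µg in alum, given intraperitoneally) with a boost on day 7. All mice were on a C57BL/6J background and carried FIC (Foxp3-IRES-Cre, which places Cre in Foxp3-expressing cells) together with a GFP reporter allele in Prdm1, the gene for Blimp-1. The library labelled N (NFATc1-deficient) was homozygous for floxed Nfatc1 and had 1 gfp and 1 intact allele of Prdm1 (Nfatc1 fl/fl.Prdm1 gfp/+.FIC). In the library labelled αA (Nfatc1 caaA.Prdm1 gfp/+.FIC), Cre switches on a constitutively active form of the short isoform NFATc1/αA. The library labelled PαA (Nfatc1 caaA.Prdm1 gfp/fl.FIC) combined that transgene with a floxed Prdm1 allele opposite the reporter allele. There was no wild-type library, and the number, age and sex of the mice behind each library are not given in the sources used here.

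Each genotype was 1 library, so the comparisons below are between libraries and there is no replicate check. The intervals are exact 95% counting intervals (Clopper-Pearson for ratios, Poisson for levels), with 2 exceptions. Those of changes in pair ratios and of ratios of sums by role are normal approximations on the log scale. All intervals cover counting error only, and reads amplified by PCR without molecular identifiers are not independent molecules. Library totals ran from 25465829 to 29726219 reads. Nfatc1 stood at 63.6, 62.9 and 32.4 RPKM in N, αA and PαA, which goes against the labels of a deficient and 2 overexpressing libraries. Counts per gene cannot show a deleted exon or a transgene, so the names below mean only the library labelled so. Prdm1 stood at 25.6, 24.9 and 10.0 RPKM. The 9 TFR and sort markers had reads in every library, with summed levels of 1574, 1514 and 1041 RPKM. Single markers did not all follow that sum. Foxp3 stood at 32.7, 20.9 and 15.3 RPKM in N, αA and PαA. Cxcr5 (48.3, 81.3 and 47.6 RPKM) and Ctla4 (148, 188 and 58.7 RPKM) were highest in αA. Markers of cells outside the gate had reads too, and the 5 neutrophil markers summed to 36.0, 0.831 and 26.0 RPKM, with S100a9, Retnlg, Ly6g and Camp at 0 reads in αA and Ly6g at 0 in PαA.

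The BH3 motif is the stretch that members of the family share and through which they bind each other, so its coding sequence is shown for 9 members, grouped by role. Pmaip1 is not among them. Capitals mark the conserved leucine codon and the pair of codons that closes the motif, glycine and aspartate in 7 of 9 genes, with alanine in Bbc3 and serine in Bad in place of glycine. Each run of 36 bases lies within 1 coding exon of the GENCODE model and is written 5′ to 3′ on the coding strand, in GRCm38.

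Mcl1 (chr3:95659427-95659462, plus strand): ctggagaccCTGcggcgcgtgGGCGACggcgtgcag
Bcl2l1 (chr2:152829697-152829732, minus strand): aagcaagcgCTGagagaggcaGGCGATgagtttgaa
Bcl2 (chr1:106712575-106712610, minus strand): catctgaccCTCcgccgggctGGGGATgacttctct
Bax (chr7:45465997-45466032, minus strand): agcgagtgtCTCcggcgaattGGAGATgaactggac
Bak1 (chr17:27022531-27022566, minus strand): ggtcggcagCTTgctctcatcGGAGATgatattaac
Bbc3 (chr7:16313764-16313799, plus strand): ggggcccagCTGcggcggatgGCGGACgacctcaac
Bad (chr19:6950783-6950818, plus strand): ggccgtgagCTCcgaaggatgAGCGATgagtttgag
Bid (chr6:120897289-120897324, minus strand): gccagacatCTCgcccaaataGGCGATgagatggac
Bcl2l11 (chr2:128147141-128147176, plus strand): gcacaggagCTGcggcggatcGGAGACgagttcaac

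No exact run of 59 bases, the read length, was shared between the transcripts of 2 members. Reads can be shared with other genes. Reads counted as unique made up 15.3% to 19.1% of the exon reads of Bak1, 70.1% to 76.5% of those of Bax and 79.2% to 90.8% of those of Bad. In the other 7 genes at least 98.0% of exon reads were unique.

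The 10 genes spanned a wide range of levels, and their order was much alike in the 3 libraries. Mcl1 was the highest in each library and lay above 92.9%, 91.3% and 90.1% of the genes past the filter in N, αA and PαA. Bax and Bak1 followed, then a group of Bcl2l1, Bbc3, Bad and Pmaip1, and Bid, Bcl2 and Bcl2l11 came last. Within that middle group Pmaip1 and Bbc3 in N and Bbc3 and Bcl2l1 in every library had overlapping intervals. So had Bcl2l1 and Bad in αA, and Bbc3, Bad and Pmaip1 in PαA. These level intervals alone did not settle their order. The same held in αA for Bax and Bak1 and for Bid and Bcl2l11. At the low end Bcl2 and Bcl2l11 overlapped in N and in PαA but not in αA, where Bcl2 was the lowest of the 10.

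**Figure D1:**
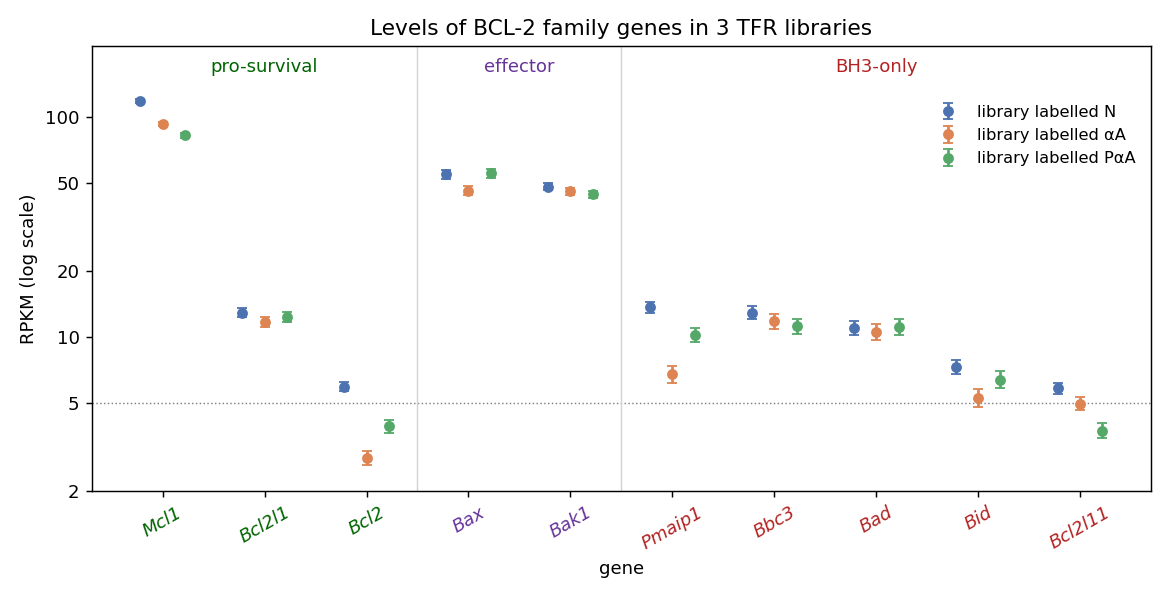
Level of each family gene (RPKM, log axis) in the libraries labelled N, αA and PαA; points are single libraries, bars are exact 95% Poisson intervals, and the dotted line marks the filter of 5 RPKM. Mcl1 stands highest in every library, and Bcl2 and Pmaip1 show the widest gap between N (5.95 and 13.6 RPKM) and αA (2.83 and 6.77 RPKM).

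Among the pro-survival genes, Mcl1 had 11979, 8654 and 7171 exon reads in N, αA and PαA, or 118, 92.9 and 82.4 RPKM. MCL-1 is a short-lived protein on which many lymphocytes depend, and of the 3 pro-survival RNAs only Mcl1 was lower in αA than in N and lower again in PαA. Bcl2l1 stood at 12.9, 11.7 and 12.4 RPKM (1758, 1466 and 1443 reads). BCL-XL is induced by T-cell activation, and the 3 levels of its RNA had overlapping intervals. The interval of its log2 ratio of αA over N, -0.14 (-0.24 to -0.035), nevertheless excluded 0. Bcl2 had 1619, 706 and 916 reads, which gave 5.95, 2.83 and 3.93 RPKM. BCL-2 is the survival protein typical of resting and memory lymphocytes, and the intervals of its 3 levels did not overlap, with N highest and αA lowest.

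The effectors were expressed well above the BH3-only genes. Bax stood at 54.8, 46.1 and 55.3 RPKM in N, αA and PαA, with αA below the other two and N and PαA overlapping. Bak1 stood at 48.2, 45.8 and 44.6 RPKM, a narrow range in which αA overlapped each neighbour. All of the 528, 511 and 522 unique exon reads of Bak1 were reads across exon junctions, so the rest of its level rests on reads not counted as unique. Bak1 lies wholly inside Ggnbp1 on the opposite strand, a gene listed with 8, 48 and 10 exon reads. Of the possible 59-base reads of Bak1, 15.5% also occur in transcripts of Ggnbp1, and the library kit did not mark strand.

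Among the BH3-only genes, Pmaip1 had 1072, 488 and 690 reads, or 13.6, 6.77 and 10.2 RPKM. NOXA binds MCL-1 above all, and its RNA followed the order of Bcl2, with N highest, αA lowest and no overlap of the intervals. Bid, which is cut by caspase-8 and links death receptors to mitochondria, stood at 7.31, 5.28 and 6.40 RPKM, again lowest in αA. Bcl2l11 stood at 5.85, 4.99 and 3.75 RPKM (1199, 937 and 659 reads). BIM binds all pro-survival members, and unlike the RNAs of Pmaip1 and Bid, its RNA was lowest in PαA. Bbc3, a p53 target, stood at 12.9, 11.8 and 11.2 RPKM with all 3 intervals overlapping. The interval of its log2 ratio of PαA over N, -0.21 (-0.37 to -0.051), nevertheless excluded 0. Bad, held inactive by phosphorylation after growth factor signals, stood at 11.0, 10.5 and 11.1 RPKM, again with overlap throughout. Bid and Bad share exon sequence on the opposite strand with Bcl2l13 and Gpr137: 16.1% and 16.7% of their possible 59-base reads also occur there.

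The comparison of αA with N sets the library labelled as overexpressing NFATc1/αA against the one labelled NFATc1-deficient. Bcl2 and Pmaip1, a survival gene and a death gene, stood apart from the other 8 members. The log2 ratio of αA over N was -1.07 for Bcl2 (-1.20 to -0.94) and -1.01 for Pmaip1 (-1.17 to -0.85). They were the 2 of 10 members past 2-fold, both lower in αA, where 4.25% of all genes past the filter were past 2-fold either way and 2.81% lower. The same 2 members were past 1.5-fold, against 14.1% of all genes. Both intervals reach to smaller folds than 2, and after edgeR's TMM factors, which centre the bulk of genes, the ratios were -0.91 and -0.85 and no member was past 2-fold.

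Smaller shifts made up the rest. Bid had a log2 ratio of -0.47 (-0.65 to -0.29), Mcl1 of -0.34 (-0.38 to -0.30), Bax of -0.25 (-0.34 to -0.15) and Bcl2l11 of -0.23 (-0.35 to -0.11). Bcl2l1 at -0.14, Bbc3 at -0.13, Bak1 at -0.074 and Bad at -0.062 were close to the median of all genes, -0.14, and the intervals of Bbc3 and Bad included 0. All 10 members were lower in αA by RPKM, and so were 68.1% of all genes. With TMM factors 6 of 10 were lower, against 46.4% of all genes, and Bcl2l1, Bak1, Bbc3 and Bad changed side (0.025, 0.087, 0.033 and 0.099). The median of the 10 members was -0.24 by RPKM and -0.077 with TMM factors, beside -0.14 and 0.024 over all genes.

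The comparison of PαA with αA sets the library labelled as also deficient in Blimp-1 against the one labelled as overexpressing NFATc1/αA alone. Pmaip1 and Bcl2, the lowest members in the first comparison, had the highest ratios here, 0.60 (0.43 to 0.77) and 0.47 (0.33 to 0.62). Bid followed with 0.28 (0.091 to 0.47) and Bax with 0.26 (0.17 to 0.36). Since both comparisons use the αA library, a value that is low there by itself gives both ratios, and the data hold no second αA library to tell.

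Bcl2l11 moved the other way. Its log2 ratio was -0.41 (-0.56 to -0.27), the lowest of the members, and Mcl1 had -0.17 (-0.22 to -0.13). The intervals of Bcl2l1 (0.074), Bad (0.072), Bak1 (-0.039) and Bbc3 (-0.080) included 0. No member was past 2-fold, against 4.63% of all genes, and 1 of 10, Pmaip1, was past 1.5-fold, against 14.7%. By RPKM 4 of 10 members were lower in PαA (56.9% of all genes), and with TMM factors 3 of 10 (49.4%). The members' median was 0.073, beside -0.062 over all genes.

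PαA and N differ in both loci, and their ratio is the sum of the other two on the log scale. The lowest ratios of PαA over N were those of Bcl2l11, -0.64 (-0.78 to -0.50), Bcl2, -0.60 (-0.72 to -0.48), and Mcl1, -0.52 (-0.56 to -0.47). Pmaip1 was at -0.41 (-0.55 to -0.27). Bax and Bad were at 0.015 and 0.010, with intervals that included 0. No member was past 2-fold (10.3% of all genes) and 2 of 10, Bcl2l11 and Bcl2, were past 1.5-fold (28% of all genes). Lower in PαA were 8 of 10 members by RPKM (66.4% of all genes) and 4 of 10 with TMM factors (46.8%), after which Bcl2l1, Bak1, Bbc3 and Bid stood at 0.17, 0.12, 0.020 and 0.037, on the side of PαA. The median was -0.20 by RPKM and 0.029 with TMM factors, beside -0.19 and 0.039 over all genes.

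**Figure D2:**
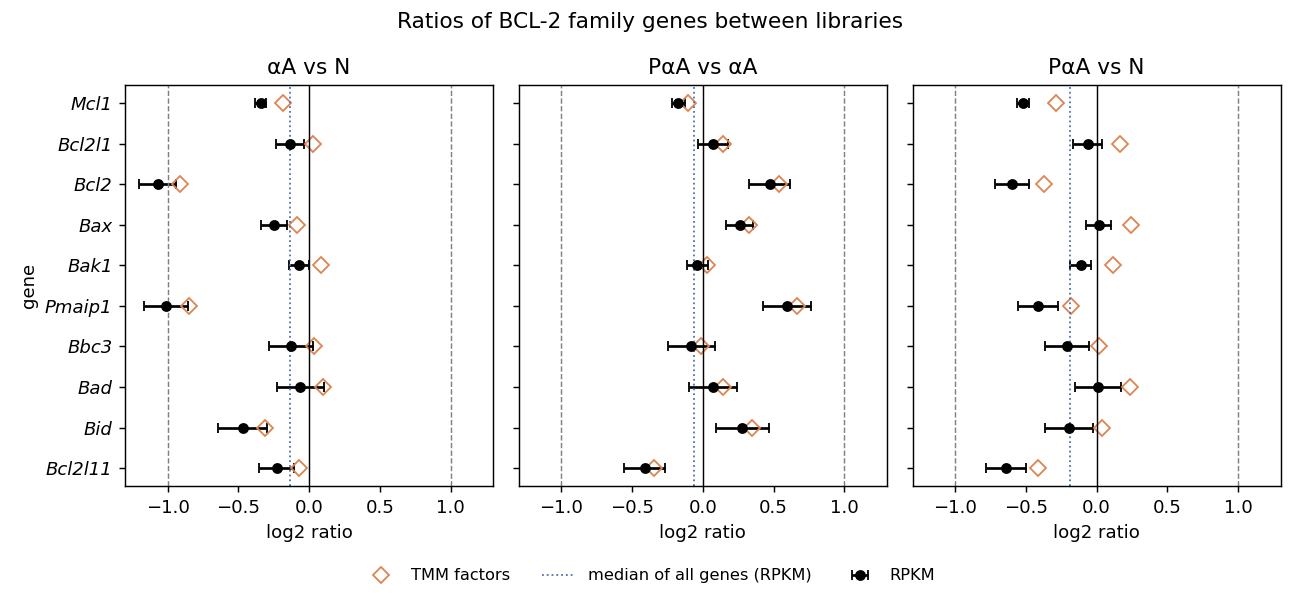
Log2 ratio of each family gene for αA over N, PαA over αA and PαA over N; black points are ratios of RPKM with exact 95% counting intervals, open diamonds the same ratios with TMM factors, dashed lines 2-fold, and the dotted line the median of all genes past the filter by RPKM. Bcl2 and Pmaip1 lie near -1 in the left panel and at the right edge of the members, at 0.47 and 0.60, in the middle panel.

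**Figure D3:**
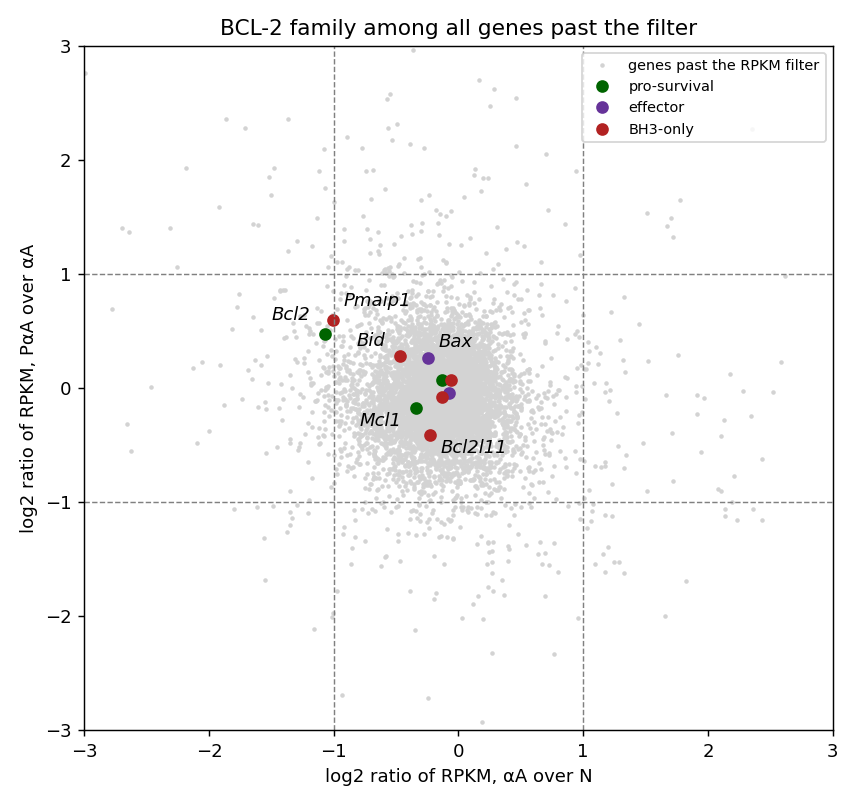
Log2 ratio of PαA over αA against that of αA over N for the family genes (coloured by role) and the genes past the filter with reads in all libraries (grey, 6968 of 6996 inside the axes); dashed lines mark 2-fold, and both axes share the αA library. Bcl2 and Pmaip1 lie in the upper left, Bcl2l11 and Mcl1 in the lower left.

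Ratios between these libraries moved with transcript length, and the members differ in length from 1337 bases (Bax) to 9157 bases (Bcl2). Over all genes past the filter, the median log2 ratio of PαA over N was 0.075 for genes with less than 2000 exon bases, -0.17 from 2000 to 4000, -0.44 from 4000 to 8000 and -0.72 from 8000 on. The classes, chosen after the values were seen, held 1936, 2841, 1937 and 290 genes with reads in both libraries. For αA over N the same medians were -0.038, -0.12, -0.23 and -0.42, and for PαA over αA they were 0.12, -0.059, -0.19 and -0.26. Relative to short RNAs, long RNAs were thus lowest in PαA and highest in N. The part of transcript length in the members' ratios was not tested beyond centring each ratio on the median of its length class.

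After that centring, Pmaip1 and Bcl2 were still the lowest members in αA over N, at -0.89 and -0.65, and the highest in PαA over αA, at 0.66 and 0.74. Bcl2 in PαA over N turned from -0.60 to 0.13, since long genes as a class were lower still. Bcl2l11, with 6896 exon bases, went from -0.64 to -0.20 in PαA over N and from -0.23 to -0.00011 in αA over N. Mcl1, of 3418 bases, kept a value of -0.34 in PαA over N, and Bcl2l1 stood at 0.38 above its class. Below their class were 7 of 10 members in αA over N, 3 of 10 in PαA over αA and 6 of 10 in PαA over N, and none differed from it by more than 2-fold.

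**Figure D4:**
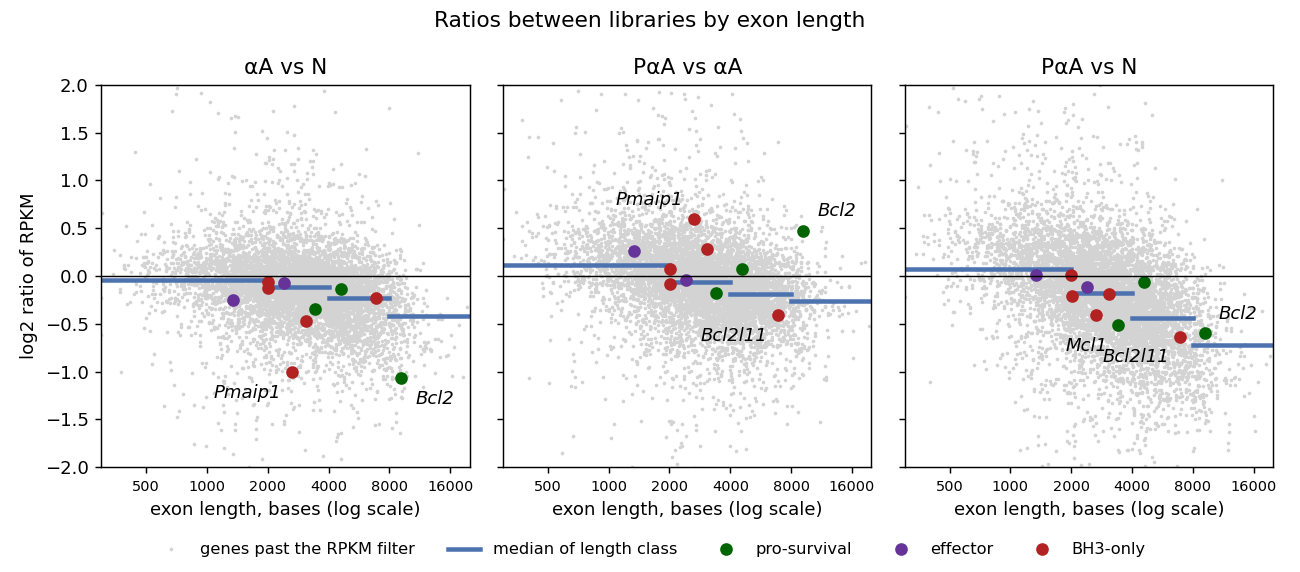
Log2 ratio of RPKM against exon length (log axis) for the genes past the filter with reads in all libraries (grey, 6857 of 6996 inside the axes), the medians of 4 length classes (blue lines) and the family genes by role. The blue lines step down with length in each panel, from 0.075 to -0.72 for PαA over N, and Bcl2 lies below its line in the left panel, above it in the middle panel and near it in the right panel.

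Ratios of 2 members within one library do not depend on the library total, and 7 such pairs were formed after the values were seen. BCL-2 and BIM bind each other, and the ratio of their RNAs was 1.02 in N (0.943 to 1.10), 0.567 in αA (0.514 to 0.626) and 1.05 in PαA (0.946 to 1.16). From N to αA it changed by -0.84 on the log2 scale (-1.02 to -0.66) and from αA to PαA by 0.88 (0.68 to 1.09), while PαA and N differed by 0.042 (-0.14 to 0.22). With both genes centred on their length classes these changes were -0.65, 0.96 and 0.33, so the near equality of PαA and N was not kept.

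MCL-1 and NOXA are another binding pair, and Mcl1 exceeded Pmaip1 8.65-fold in N (8.13 to 9.22), 13.7-fold in αA (12.5 to 15.1) and 8.05-fold in PαA (7.44 to 8.71). Both genes fall in the same length class, and the changes were 0.67 (0.51 to 0.83) from N to αA and -0.77 (-0.94 to -0.60) from αA to PαA. Reads across exon junctions alone did not show the rise from N to αA. Their log2 ratios of αA over N were -0.78 (-0.98 to -0.58) for Mcl1 and -0.26 (-0.90 to 0.37) for Pmaip1, with overlapping intervals. Bcl2l1 exceeded Bcl2l11 2.20-fold in N, 2.35-fold in αA and 3.29-fold in PαA, a change of 0.48 (0.31 to 0.66) from αA to PαA between genes of one length class. For Mcl1 over Bcl2l11 the values were 20.2, 18.6 and 22.0, and the intervals of N overlapped those of both other libraries.

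Bcl2l1 exceeded Bcl2 2.17-fold in N, 4.15-fold in αA and 3.15-fold in PαA, and Mcl1 exceeded Bcl2 19.8-fold, 32.8-fold and 21.0-fold. Bcl2 is in a longer length class than Bcl2l1 and Mcl1. With both genes centred on their classes, the change of Bcl2l1 over Bcl2 from N to PαA was 0.25 instead of 0.54. The centred ratios of PαA over N were -0.34 for Mcl1 and 0.13 for Bcl2, so the nearness of 19.8 and 21.0 was not kept. The effectors were near balance, with Bax over Bak1 at 1.14 in N, 1.01 in αA and 1.24 in PαA.

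**Figure D5:**
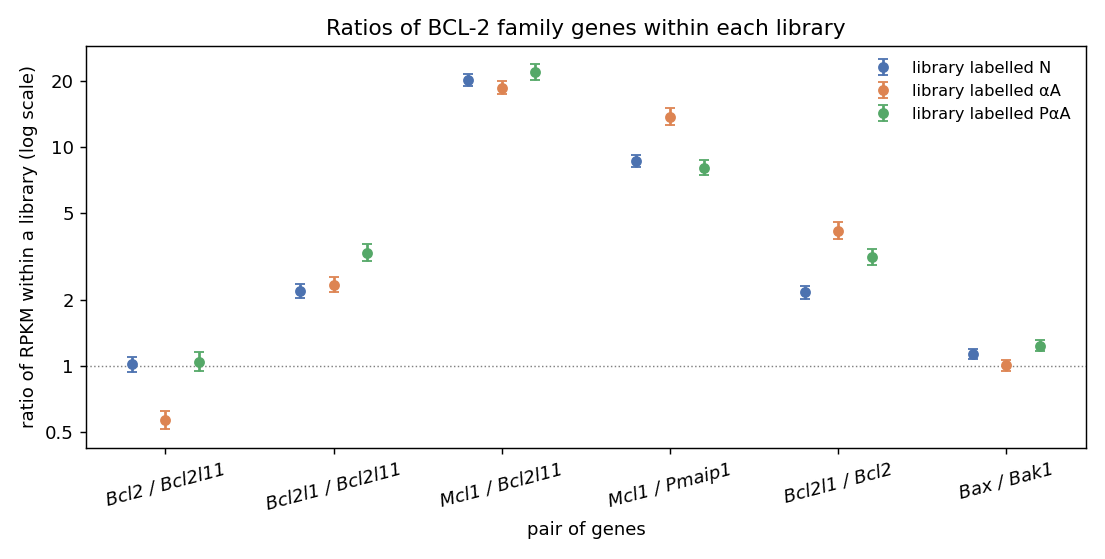
Ratio of the RPKM of 2 family genes within each library (log axis) for 6 of the 7 pairs, with exact 95% counting intervals; the dotted line marks equal levels. Bcl2 over Bcl2l11 drops to 0.567 in αA between 1.02 and 1.05 in the other libraries, and Mcl1 over Pmaip1 rises to 13.7 there. Reads across exon junctions alone did not show that last rise.

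Summed by role over the members, pro-survival RNA exceeded BH3-only RNA in each library. The sum of Bcl2, Bcl2l1 and Mcl1 over the sum of the 5 BH3-only genes was 2.70 in N (2.60 to 2.80), 2.73 in αA (2.62 to 2.85) and 2.31 in PαA (2.22 to 2.42). N and αA overlapped and PαA was lower. Mcl1 alone made up 86.2%, 86.5% and 83.5% of the members' pro-survival sum. Without Mcl1 the ratio was 0.372, 0.370 and 0.382. These sums leave out family genes that are not members, among them further BH3-only genes and copies of the pro-survival gene for A1. The A1 copy Bcl2a1b was listed at 259, 237 and 166 RPKM in N, αA and PαA. The members' pro-survival sum was lower, at 137, 108 and 98.7 RPKM. Most reads of Bcl2a1b were not unique, and a ratio with the A1 copies was not formed. A ratio of RNAs says nothing of the proteins, several of which are controlled after translation.

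The deposited tables also count intron reads, which come in part from unspliced RNA. Bcl2 had 113, 101 and 204 intron reads in N, αA and PαA. In αA over N its intron ratio was -0.036 (-0.44 to 0.36) where the exon ratio was -1.07, and in PαA over αA it was 1.11 (0.76 to 1.47) where the exon ratio was 0.47. Scaled by the library totals, the intervals of intron and exon ratios did not overlap in either comparison. Introns took 3.01%, 4.56% and 3.29% of the reads in genes, and relative to all intron reads of each library the Bcl2 intron ratios were -0.60 (-0.997 to -0.195) and 1.56 (1.21 to 1.92). On that scale the interval of αA over N overlapped that of the exon ratio, and that of PαA over αA did not. An antisense gene, D630008O14Rik, shares 4.88% of the possible 59-base exon reads of Bcl2 and was not analysed here, so intron reads of Bcl2 may belong to either strand.

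Bcl2l1 had 138, 186 and 87 intron reads, and its intron ratio of PαA over αA was -0.999 (-1.38 to -0.62) beside an exon ratio of 0.074. Mcl1 had 63, 58 and 60. In the other members intron reads were few, between 0 and 53 per library.

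Reads across exon junctions count spliced RNA only. Bcl2l11 had 77, 35 and 57 of them, with a ratio of -1.01 (-1.63 to -0.42) for αA over N and 0.80 (0.17 to 1.45) for PαA over αA. That second value has the opposite sign to its exon ratio of -0.41, and the intervals do not overlap, so the 2 readouts of Bcl2l11 disagree on which of these libraries is lower. Mcl1 had 586, 313 and 300 junction reads, a ratio of -0.78 (-0.98 to -0.58) for αA over N beside -0.34 for all exon reads. For Pmaip1, with 51, 39 and 34 junction reads, the ratio was -0.26 (-0.90 to 0.37). Bcl2 had 13, 3 and 3, too few to compare. Junction reads were 26.0%, 26.2% and 27.5% of all exon reads in the libraries.

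By RPKM the summed neutrophil markers had the same order of libraries as Bcl2, Pmaip1 and Bid. The marker sum was highest in N, lower in PαA and lowest in αA, where 4 of the 5 markers had no read. Camp alone was highest in PαA (37, 0 and 44 reads). The 5 myeloid markers listed summed to 264, 192 and 260 RPKM, also lowest in αA, but of these markers only Lyz2 had that order (214, 134 and 184 RPKM). Csf1r was highest in αA, Fcer1g and Tyrobp were lowest in N, and Cd14 was lowest in PαA. The part of these cells in the levels of Bcl2, Pmaip1 and Bid was not tested. The order of Bcl2 and Pmaip1 itself depended on the readout. Centred on its length class, Bcl2 in PαA over N was at 0.13, and junction reads of Pmaip1 (51, 39 and 34) were lowest in PαA. In sorted bulk cells, fewer cells of a type and less RNA per cell cannot be told apart. Erythroid markers summed to 535, 2196 and 1948 RPKM and B cell and plasma cell markers to 60.2, 71.2 and 109 RPKM, neither in the order of Bcl2. The 5 CD8 T and NK cell markers summed to 15.8, 19.6 and 17.3 RPKM. Single markers did not all follow these sums. The B cell and plasma cell sum was mostly Jchain (44.3, 58.4 and 94.8 RPKM), while Cd79b and Ms4a1 were highest in N. Among the CD8 T and NK cell markers only Eomes had the order of Bcl2 by RPKM (3.32, 0.91 and 3.02 RPKM).

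NFAT proteins bind DNA at a GGAAA core, and Blimp-1 at an element written here as AGTGAAAG or AGCGAAAG. Leaving out Pmaip1, both were searched on both strands in the 250 bases before each RefSeq start (GRCm38.p6), in 15 windows of 9 members. The NFAT core was found in 11 of these windows, of 8 of the 9 genes, and in 55.6% of all 32851 windows in the table. The Blimp-1 element was found in none of the 15 and in 1.5% of all windows. The windows of Bcl2 and Bcl2l11 are shown because these genes encode the binding partners compared above, with the core in capitals: Bcl2 has 1 and Bcl2l11 none. Neither search term contains the other.

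Bcl2 (chr1:106714291-106714540, minus strand): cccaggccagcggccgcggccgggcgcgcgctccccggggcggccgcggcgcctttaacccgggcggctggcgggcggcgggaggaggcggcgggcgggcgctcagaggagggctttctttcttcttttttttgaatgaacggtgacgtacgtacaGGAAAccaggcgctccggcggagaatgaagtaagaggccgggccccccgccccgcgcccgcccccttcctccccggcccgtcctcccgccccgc
Bcl2l11 (chr2:128125788-128126037, plus strand): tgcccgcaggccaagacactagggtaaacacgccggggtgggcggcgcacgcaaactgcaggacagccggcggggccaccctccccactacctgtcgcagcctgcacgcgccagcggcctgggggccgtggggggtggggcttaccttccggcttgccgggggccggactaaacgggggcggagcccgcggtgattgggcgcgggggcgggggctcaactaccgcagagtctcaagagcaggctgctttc

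A match of these letters is no binding site, and a window without them says nothing of the factor, which can act from elsewhere.

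The other genes of the pathway were taken as 7 lists. Of 16 further BCL-2 family genes 9 passed the filter. By RPKM none of them was past 2-fold in αA over N or in PαA over αA (4.25% and 4.63% of all genes), and 2 were higher past 2-fold in PαA over N (10.3% of all genes past it either way). These were Bik, a BH3-only gene (2.10, 3.85 and 5.21 RPKM), and Bcl2a1a (3.90, 7.71 and 8.87 RPKM), named after their values were seen. With TMM factors both were also past 2-fold in αA over N, at 1.03 and 1.14. Bcl2a1b and Bcl2a1d, copies of the pro-survival gene for A1, were listed at 259, 237 and 166 RPKM and at 117, 87.2 and 83.0 RPKM. Only 12.9% to 14.5% and 25.9% to 26.8% of their reads were unique, so the split among the A1 copies is uncertain.

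Of 13 apoptosome and caspase genes 12 passed the filter, and none was past 2-fold in αA over N, with a median log2 ratio of -0.031. Of 5 inhibitor of apoptosis genes 4 passed, and all 4 had lower levels in PαA than in αA, as had 56.9% of all genes, with a median of -0.46. Birc6, a giant ubiquitin ligase that inhibits caspases, stood at 7.63, 3.70 and 2.48 RPKM, a log2 ratio of -1.04 (-1.13 to -0.96) for αA over N. It has 16246 exon bases, and that ratio was -0.63 centred on its length class and -0.88 with TMM factors, neither past 2-fold. In PαA over N, where 10.3% of all genes were past 2-fold, its log2 ratio was -1.62 (-1.72 to -1.52). With TMM factors this was -1.39, still past 2-fold, and centred on its length class it was -0.90.

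Of 8 survival cytokine receptor and STAT5 genes 7 passed, and 1 was past 2-fold, higher in PαA over αA. This was Il7r, the receptor chain whose signal maintains BCL-2 in resting T cells, at 82.9, 64.2 and 164 RPKM, with a log2 ratio of 1.35 (1.31 to 1.39). Like Bcl2, Il7r was lowest in αA, but by RPKM it was highest in PαA where Bcl2 was highest in N. Centred on their length classes, both genes were higher in PαA than in N, with ratios of 1.15 for Il7r and 0.13 for Bcl2. The other 6 genes of that list had lower levels in PαA than in αA, beside 56.9% of all genes.

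In the 3 remaining lists no gene was past 2-fold in αA over N or in PαA over αA. Of the 10 death receptor genes 9 passed, with medians of -0.027 and -0.22 in these comparisons. Of the 8 turnover and binding partners 6 passed, with medians of -0.20 and 0.014. Of the 6 transcription factor genes upstream of BH3-only genes 5 passed, with medians of -0.14 and -0.29. In PαA over N, where 10.3% of all genes were past 2-fold, each of these lists had 1 gene lower past 2-fold: Traf2 (-1.01), Huwe1, the ligase that marks MCL-1 for degradation (-1.11), and Foxo3, an activator of Bcl2l11 (-1.03). These were named after their values were seen, and centred on their length classes they stood at -0.83, -0.38 and -0.59. With TMM factors they stood at -0.78, -0.88 and -0.80, and none was past 2-fold.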

How the data were processed

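Total RNA of sorted TFR cells was made into poly(A) libraries with a kit that does not mark strand and sequenced as single reads of 59 bases. Per the labels and the study's methods, the authors trimmed adapters, aligned reads to GRCm38 and counted them per gene in CLC Genomics Workbench with default settings. The deposited counts are total and unique exon, intron and exon-exon reads per gene. The deposited RPKM, TPM and share columns use decimal commas and were converted to numbers; RPKM is per library total, so 1 abundant RNA lowers all others. Genes without exon length (3715) were left out.

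Each group was 1 library, so no test was run and no count model was fitted. Ratios of RPKM were given with exact 95% counting intervals from exon reads, and past 2-fold meant above 5 RPKM in at least 1 library. Changes in pair ratios and ratios of sums by role had approximate intervals. edgeR 4.0.16 (R 4.3.3) gave TMM factors only. Intervals and filter were tested on simulated data. Python 3.11.15, pandas 2.3.3 and scipy 1.17.1 did the rest. Alternatives were TPM, TMM, median-of-ratios factors, unique reads, pseudocounts of 0.1 and 1, other filters, 1.5-fold and, added after seeing the data, centring by exon length.

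Named were all members, list genes past 2-fold in αA over N or PαA over αA if the higher library had 100 or more exon reads (at most 20), the 5 genes nearest to Bcl2, Nfatc1 and Prdm1. One item that this rule covers is not reported here. Members and lists were chosen with earlier results of these data known. Sequences come from RefSeq and GENCODE tables of GRCm38.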

Additional observations from a re-analysis of the deposited data

How the results depend on the processing

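Of 210 ratios of single members under the alternatives, 128 stayed within the counting interval of the main value, 66 moved outside it with the same sign or from an interval that included 0, and 16 changed sign from an interval that excluded 0. Bcl2 and Pmaip1 kept the lowest ratios of αA over N among the members under TPM, TMM, size factors, unique exon reads, length centring and both pseudocounts; junction reads alone gave Pmaip1 -0.26, above Bcl2l11, Mcl1, Bid and Bad. The number of members past 2-fold in that comparison was 2 by RPKM, 0 with TMM factors, size factors, a pseudocount of 1 or centring by exon length class, and 1 with unique reads, a pseudocount of 0.1 or a filter of 10 RPKM. With 1.5-fold it was 1 in PαA over αA and 2 in PαA over N.

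The members' median of αA over N was -0.077 with TMM, -0.067 with size factors and -0.11 with length centring. That of PαA over αA was -0.092 by TPM. That of PαA over N was -0.40 by TPM, 0.029 with TMM, 0.044 with size factors and -0.027 with length centring. The members' pro-survival over BH3-only ratio of PαA was 2.45 with unique reads.

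These sign changes were for Bcl2l1 in αA over N (TMM 0.025, size factors 0.036, length centring 0.094) and Bak1 in αA over N (TMM 0.087, size factors 0.098, length centring 0.042, unique reads 0.0998). In PαA over N they changed for Bak1 (TMM 0.12, size factors 0.13, unique reads 0.27, length centring 0.060), Bbc3 (TMM 0.020, size factors 0.036), Bid (TMM 0.037, size factors 0.053) and Bcl2 (length centring 0.13). Ratios whose interval included 0 also changed sign, such as Bbc3 and Bad in αA over N (TMM 0.033 and 0.099) and Bcl2l1 in PαA over N (TMM 0.17). TMM and size factors move all log2 ratios of a comparison by the same amount. What lay behind these shifts and the other sign changes was not tested.

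No paired analysis was possible because each group is 1 library and no result comes from a test. No replicate was left out for the same reason, and the spread between mice is not measured.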

Other observations

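The genes whose pattern over the 3 libraries was most like that of Bcl2, by Euclidean distance of the log2 ratios of αA over N and PαA over αA among 6887 genes past the filter with at least 100 reads in each library, were Fahd2a, Ttc39c, Tex2, Stap1 and Marcksl1. Their distances ran from 0.025 to 0.070. Ttc39c stood at 36.8, 17.5 and 23.5 RPKM in N, αA and PαA and Marcksl1 at 26.5, 12.8 and 18.6 RPKM. With 3 libraries the pattern has only 2 free values, so many genes lie close to any gene.

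Intron reads of Bid numbered 23, 39 and 7 and those of Bad 49, 9 and 12, both outside the order of their exon reads; both genes overlap another gene on the opposite strand. Bak1 was listed with 10, 30 and 0 intron reads, none of them unique.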
